A study of Arabidopsis thaliana with 42 samples.

Results

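The genes described here are loci that the authors of the study added to the annotation of Arabidopsis thaliana, and which the deposited files list under identifiers that begin with N_new_gene. Of 447 such genes listed among 65238 features, 353 reached 1 RPKM in 2 or more of the 38 biological libraries and were taken as members. RPKM is the number of reads of a gene relative to its exon length and to all reads mapped in that library. Another 65 of the listed genes carried the code -1 in every library, which was read as no value. The remaining 29 failed the rule, and 24 of them were at 0 in every library. The rule used the levels themselves, so the members' levels and on-off patterns are given as a description.

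RNA came from seedlings of 19 natural accessions, the founders of a multiparent mapping population, grown on soil for about 11 days with 16 hours of light and 8 hours of dark at 20 °C after 5 days of stratification at 4 °C. The accessions were Bur-0, Can-0, Col-0, Ct-1, Edi-0, Hi-0, Kn-0, Ler-0, Mt-0, No-0, Oy-0, Po-0, Rsch-4, Sf-2, Tsu-0, Wil-2, Ws-0, Wu-0 and Zu-0, none of them with a treatment or an engineered allele in the labels. Each had 2 polyadenylated RNA libraries labelled as biological replicates. Another 4 Col-0 libraries, labelled as technical replicates, held 28691 features and none of the newly annotated genes, and were not used. Nothing in the labels says how many plants were pooled, so p-values measure the spread between these libraries.

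A reference annotation is built mostly on 1 accession, here Col-0, and on the RNA sampled when it was made. Genes added later are often short, weakly transcribed or without relatives in other species, and in plants such loci commonly differ between natural accessions in whether they are present or transcribed. The files used here give no role for these members and pair their identifiers with no position or sequence, so none is printed.

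Depth, recovered from the steps between low values, was 1238089 mapped reads in Ws-0 replicate 2, the shallowest library, and 4907587 in Ct-1 replicate 2, the deepest, with a median of 3617885. On an exon model of 300 bases, 3 reads corresponded to 2.04 to 8.08 RPKM, so low levels here rest on few reads. Leaf markers were high in all 38 libraries, with RBCS1A, a Rubisco small subunit, at 15221 to 24195 RPKM and LHCB3, a light-harvesting protein, at 2830 to 6592 RPKM. PYK10, a root and hypocotyl glucosidase, stood at 81.1 to 448 RPKM, while the root hair genes RHD6 and COBL9 stayed at or below 0.231 and 0.198 RPKM. The floral genes AP3 and PI reached 0.952 and 2.27 RPKM, and the seed storage gene CRA1 reached 5.73 RPKM. Whether tissue make-up bears on the members was not tested, and in whole seedlings fewer cells of a type and less RNA per cell cannot be told apart.

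Members were lower and far less evenly spread over accessions than nuclear genes of the reference annotation that passed the same filter. The highest accession mean of a member had a median of 6.02 RPKM (quartiles 3.82 and 10.8 RPKM), against 12.5 RPKM in the 20316 nuclear genes (quartiles 4.98 and 31.1 RPKM) and 2.89 RPKM in 893 transposable elements. Averaged over all accessions, the median was 1.81 RPKM in members, against 8.37 RPKM in nuclear genes and 0.418 RPKM in transposable elements. Together the members made up 0.102% (Ct-1 replicate 1) to 0.249% (Sf-2 replicate 1) of the summed RPKM of a library.

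A member was called on in an accession where both libraries held at least 1 RPKM, and off where both were listed at 0. Of the 353 members, 23 (6.52%) were on in every accession, 42 (11.9%) were on in exactly 1 and 21 (5.95%) were on in none. The median member was on in 6 of 19 accessions, whereas 14187 nuclear genes (69.8%) were on in all 19. In between, 121 members were on in 2 to 6 accessions, 79 in 7 to 12 and 67 in 13 to 18. An on-off pattern, on in at least 1 accession and off in at least 1 other, was seen in 223 members (63.2%), against 1840 nuclear genes (9.06%) and 452 transposable elements (50.6%). Depth limits this count. For 217 of these members the exon length could be recovered, as described below. At their lowest level called on, 44 of the 217 would have held at least 3 reads in every library at 0. Reads and length were not matched with nuclear genes.

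**Figure D1:**
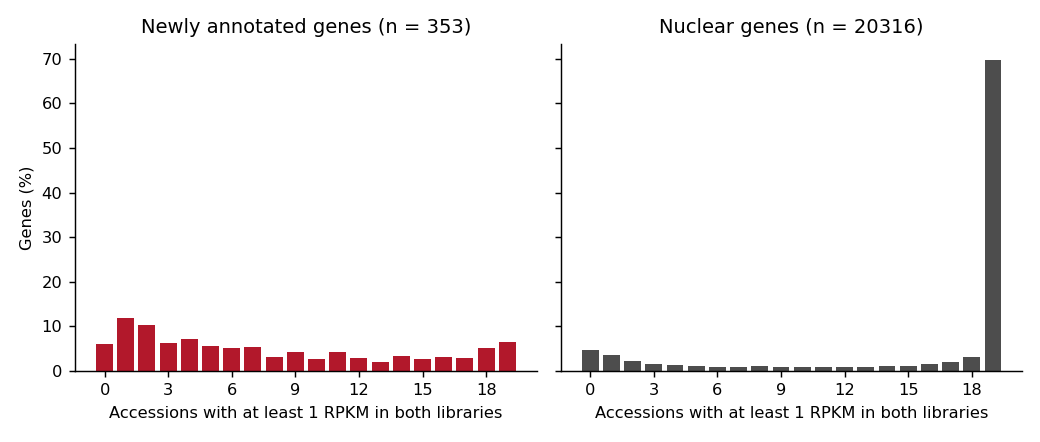
Share of genes (vertical axis, %) by the number of accessions in which both libraries held at least 1 RPKM (horizontal axis), for 353 newly annotated genes on the left and 20316 nuclear genes on the right. The members spread over the whole range, with 6.52% on in all 19 accessions, while 69.8% of nuclear genes stand in the last bar.

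The same was seen among genes of like level. Among genes whose highest accession mean was 3 to 10 RPKM, 9 of 202 members (4.46%) were on in every accession, against 3293 of 5638 nuclear genes (58.4%). At 10 to 30 RPKM the counts were 11 of 71 members (15.5%) and 5791 of 6311 nuclear genes (91.8%). At 30 RPKM or more, 3 of 27 members (11.1%) were on everywhere, against 5073 of 5238 nuclear genes (96.8%), and 21 of the 27 members (77.8%) were on in one accession and off in another, against 91 nuclear genes (1.74%). Of those 27 members, 10 had a recovered length under 100 bases and 20 had at least 10 reads in a library, of which 15 had the on-off pattern and 3 were on everywhere. At 1 to 3 RPKM few genes of either kind were on in all accessions, 0 of 51 members and 30 of 2785 nuclear genes (1.08%). These shares are described without a test, because the members had been chosen with their levels known, and gene length was not matched between both kinds of gene.

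**Figure D2:**
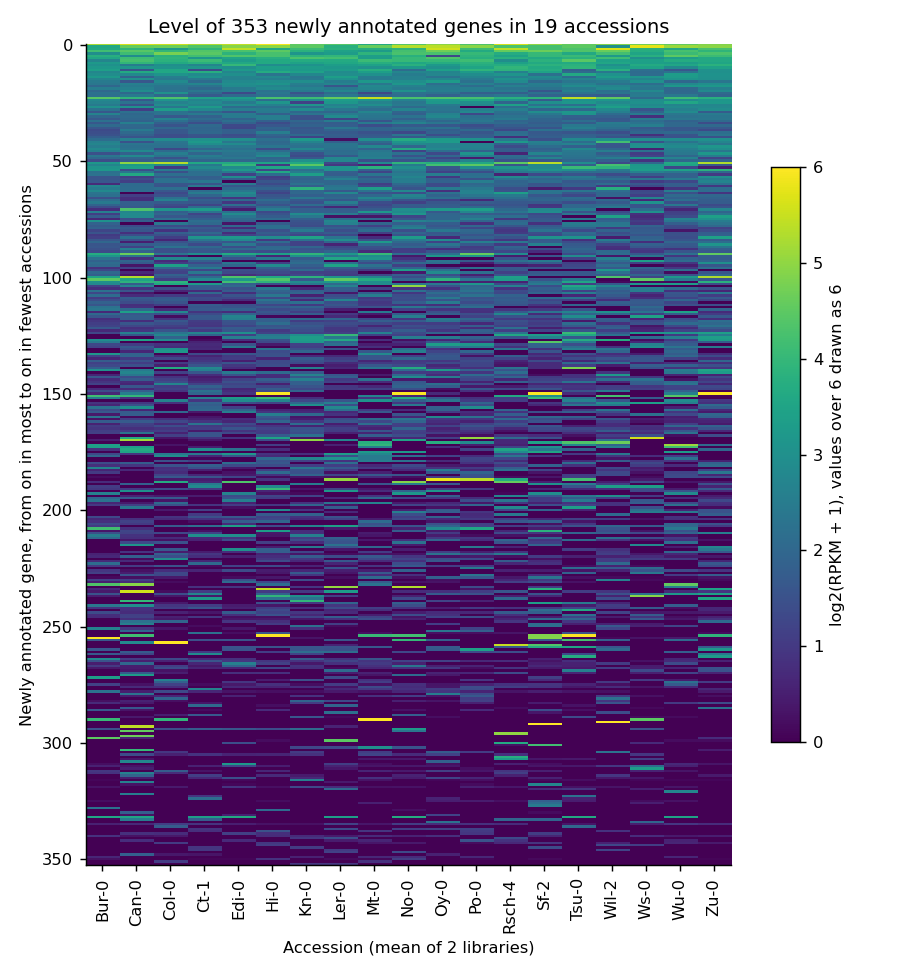
Mean log2(RPKM + 1) of 2 libraries for each of the 353 newly annotated genes (rows, ordered from on in most to on in fewest accessions) in each of the 19 accessions (columns), with colours capped at 6. The 23 genes at the top are on in every accession, and the lower rows hold isolated bright cells where a gene was high in one or a few accessions and at 0 in most others.

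How many reads stood behind a level depended on the length by which the authors divided, which could be recovered for 346 members as the length that turns their values into whole reads. The shortest well matched length was taken, so where few values were above 0, both length and reads could be a multiple of those given. Of 7872 values above 0 in these members, 6951 (88.3%) came out whole within a relative tolerance of 5e-06. The recovered length had quartiles of 188 and 588 bases around a median of 356.5 bases, and ran up to 2372 bases (N_new_gene_491 had 2012 bases). It was under 100 bases in 45 members. In 132 members it was below the 276 bases on which 1 read gives 1 RPKM in the library of median depth, so that a single read there passed the threshold.

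Of the 4 members with the highest mean level, 3 therefore rested on a handful of reads. N_new_gene_388, with a recovered length of 1 base, had 324 and 615 RPKM in Tsu-0, 248 and 230 RPKM in Hi-0, and 842 and 0 RPKM in Sf-2. These were 1 and 2 reads in Tsu-0, 1 and 1 in Hi-0 and 3 and 0 in Sf-2, and its reads over all 38 libraries summed to 12. N_new_gene_259, also with a length of 1 base, had 629 and 279 RPKM in Mt-0, again 2 reads and 1 read. N_new_gene_150, with a length of 2 bases, had 1 read in each of 8 libraries, which read 102 to 165 RPKM there. Such lengths are not those of a transcript, and levels of these 3 members carry no more than the presence of single reads. Across the members with a recovered length, the highest library held 1 or 2 reads in 36, 3 to 9 reads in 139 and 10 or more in the rest.

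**Figure D3:**
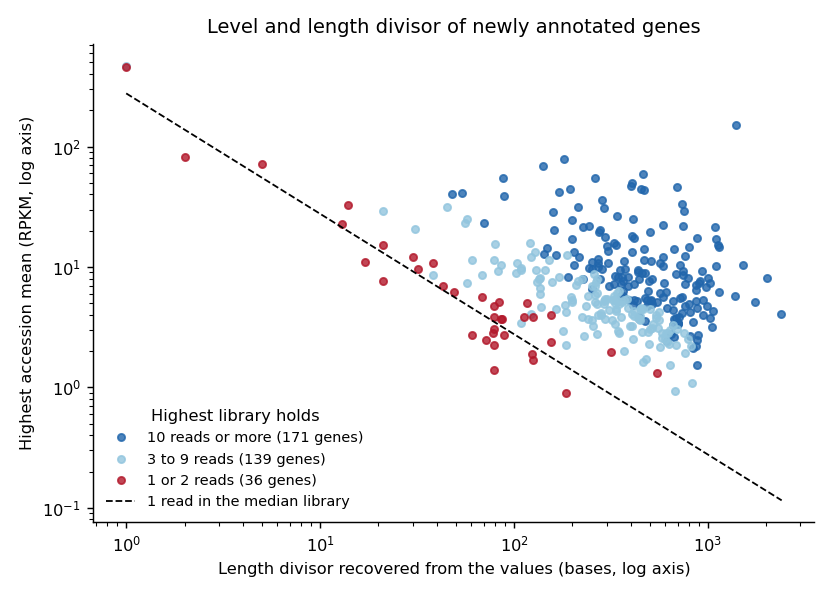
Highest accession mean (vertical log axis, RPKM) against the length divisor recovered from the values (horizontal log axis, bases) for 346 newly annotated genes, coloured by the reads in their highest library. The dashed line is the level of 1 read in the library of median depth, and the members with the shortest divisors lie along it, with levels set by 1 or 2 reads.

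Broadly expressed members were longer and better covered than narrowly expressed ones. The median recovered length was 460 bases in the 23 members on in every accession, 414 bases in those on in 13 to 18, 343.5 bases in those on in 2 to 6 and 258.5 bases in those on in exactly 1. Their highest library held a median of 22.3 reads when on in all accessions and of 5.86 reads when on in exactly 1. Breadth thus moved with length and read number, and the part of these in the breadth was not tested. With 3 reads required in both libraries besides 1 RPKM, a condition added after the data were seen, 268 members were on somewhere, 14 were on in every accession and 161 had an on-off pattern. With 10 reads required, 110 were on somewhere, 2 in every accession and 61 had an on-off pattern.

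Replicate libraries agreed best where reads were many. Of 3323 values at 1 RPKM or more in replicate 1, 81.9% were at 1 RPKM or more in replicate 2, and 80.5% of 3378 such values in replicate 2 were so in replicate 1. The same shares were 96.4% and 96.5% in nuclear genes. For members with 1 or 2 reads they were 65.7% and 61.8%, for 3 to 9 reads 83.6% and 83.7%, and for 10 reads or more 98.7% and 98.1%.

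The members on in every accession differed in how evenly they were transcribed. N_new_gene_528, the highest of them by mean, had 58.9 and 59.0 RPKM in Hi-0 and 10.3 and 13.1 RPKM in Mt-0, its highest and lowest accessions. Its replicates could also differ widely, with 26.1 and 86.7 RPKM in Rsch-4. The moderated F test over accessions gave an adjusted p = 0.054 (limma method, log2(RPKM + 1), Benjamini-Hochberg over all genes tested). The outcome depended on the libraries used: 13 of the 38 fits that left out 1 library gave an adjusted p under 0.05, the lowest 0.0139 without Rsch-4 replicate 1. N_new_gene_522, with 1139 bases the longest of the 23, stood at 14.7 and 14.3 RPKM in Can-0 and at 7.81 and 9.39 RPKM in Bur-0, and its libraries ran from 5.70 to 19.7 RPKM around a median of 11.3 RPKM. Its spread between accessions was 0.18 on the log2(RPKM + 1) scale (SD of 19 means), the smallest among the 6 members at 5 RPKM or more in every library, with an adjusted p = 0.915.

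Other members on everywhere had accessions that stood apart. N_new_gene_443, of 404 bases, had 55.6 and 44.3 RPKM in Wil-2, 46.9 and 45.9 in Oy-0, 38.5 and 45.4 in Edi-0 and 38.3 and 44.4 in Rsch-4. The libraries of the other 15 accessions held 6.45 to 26.4 RPKM, with the lowest mean in Col-0. The 4 high accessions did not overlap the rest, but this split was drawn after the values were seen and was not tested. The moderated F test over all accessions gave N_new_gene_443 an adjusted p = 5.38e-06. N_new_gene_191, of only 88 bases, had 45.6 and 64.2 RPKM in Ws-0 and 5.80 and 8.12 RPKM in Wil-2. These were 16 and 7 reads against 2 and 2 reads, and the F test over all accessions gave an adjusted p = 3.61e-04. N_new_gene_167 had 27.9 and 22.0 RPKM in Oy-0 and 7.62 and 10.1 RPKM in Mt-0 (F test adjusted p = 0.00837). N_new_gene_423 had 21.4 and 17.4 RPKM in Oy-0 and 7.47 and 6.42 RPKM in Ws-0 (F test adjusted p = 0.0419). Fits that each left out 1 library ended the call of N_new_gene_423 in 21 cases, with Ws-0 replicate 2 giving the highest adjusted p, 0.0966, and quantile normalization ended it too. The highest accession of each was also set against the mean of the others (moderated contrast). The adjusted p was 9.80e-05 for Wil-2 in N_new_gene_443 and 0.00399 for Ws-0 in N_new_gene_191. For Oy-0 it was 0.140 in N_new_gene_167 and 0.138 in N_new_gene_423, above the threshold. N_new_gene_15 was on in 18 accessions and led in Tsu-0 with 58.1 and 29.97 RPKM (contrast adjusted p = 0.0888) and in Mt-0 with 43.6 and 42.9 RPKM. Its replicates in Ws-0 disagreed, with 16.7 and 0 RPKM. The range of N_new_gene_15 over accession means was 3.39 with both Ws-0 libraries (F test adjusted p = 0.0705). It was 2.15 without the library at 0 and 5.47 without the other one.

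One member was on in 18 accessions and at 0 in both libraries of the remaining one. N_new_gene_524, of 353 bases, had 10.8 and 8.10 RPKM in Wil-2, the highest accession, and 2.84 and 3.62 RPKM in Kn-0, the lowest of those that were on. It was listed at 0 in both libraries of Po-0. At the level of Kn-0 those 2 libraries would have held 3.23 and 4.30 reads. In the shallower of them alone, 3 reads would be about 3.00 RPKM. Both libraries at 0 limit the level in Po-0 further than 1 alone, but a low level there could still have been missed.

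Clear on-off patterns were found among 10 members picked for being on in few accessions and lower in the others. They were taken by the gap between the lowest accession that was on and the highest of the rest, and so carry no test. N_new_gene_236, of 1403 bases, had 164 and 139 RPKM in Bur-0 and 26.6 and 31.4 RPKM in Sf-2. That was 853 and 713 reads in Bur-0 and 133 and 100 reads in Sf-2, while 13 accessions were at 0 in both libraries and the other 4 held at most 3 reads in a library. At the level of Sf-2, each library at 0 would have held 94.8 to 199.8 reads, which sets this pattern well above the depth limit.

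Sf-2 was on in several of these members, each time with other accessions. N_new_gene_365, of 452 bases, had 36.1 and 51.9 RPKM in Rsch-4 and 18.6 and 20.5 RPKM in Sf-2, against 0.538 and 0.485 RPKM (1 read each) in Ler-0 and 0 in both libraries of the other 16 accessions. N_new_gene_367, of 468 bases, had 37.7 and 50.2 RPKM in Hi-0, 12.6 and 14.1 in Sf-2 and 11.7 and 8.81 in Zu-0, against at most 0.586 RPKM in Bur-0 and Po-0 and 0 in the other 14. N_new_gene_128, of 181 bases, was not among the 10 but had one of the widest ranges. It was high in Sf-2, Hi-0, Zu-0 and No-0, where its 8 libraries held 60.4 to 93.5 RPKM. It was also on in Can-0, Wu-0 and Ct-1 at 1.47 to 12.5 RPKM, and was at 0 in 8 accessions. At its lowest mean called on, 3.00 RPKM, the libraries of those 8 would have held 0.672 to 2.57 reads. Such a level there could not be told from 0.

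N_new_gene_467 was on in 6 accessions and at 0 in all others. This member of 719 bases had 9.62 and 11.2 RPKM in Can-0, 10.1 and 10.4 in Sf-2, 6.43 and 11.8 in Wu-0, 6.90 and 10.7 in No-0, 7.88 and 8.54 in Mt-0 and 7.17 and 6.01 in Rsch-4. The other 13 accessions were at 0 in all 26 libraries, where even the lowest of the 6 levels would have given 5.87 to 23.2 reads. The 6 levels themselves lay close together, from 6.59 RPKM in Rsch-4 to 10.4 RPKM in Can-0 as means of 2 libraries. N_new_gene_491, with 2012 bases, was also of this kind, at 7.56 and 8.63 RPKM in No-0, 6.41 and 7.22 in Sf-2, 6.89 and 6.09 in Wu-0, 8.97 and 3.15 in Edi-0 and 5.22 and 4.96 in Bur-0. It stayed at or below 0.247 RPKM in Hi-0, Kn-0 and Rsch-4 and at 0 in the other 11 accessions.

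N_new_gene_439, of 262 bases, was graded rather than even across the accessions that were on. It had 58.1 and 50.9 RPKM in Oy-0, 44.4 and 38.5 in Po-0, 32.5 and 31.7 in Ler-0, 23.5 and 12.9 in Tsu-0 and 14.8 and 9.42 in Rsch-4. Oy-0, Po-0 and Ler-0 did not overlap in their libraries, whereas Tsu-0 and Rsch-4 did. The remaining libraries held at most 1 read each, up to 0.958 RPKM, and 10 accessions were at 0. N_new_gene_217, of 200 bases, was on in Wil-2, Tsu-0, Mt-0, Oy-0, Sf-2 and Po-0, from 29.3 and 19.7 RPKM in Wil-2 down to 3.53 and 10.7 RPKM in Po-0, with 1 read in Rsch-4 and 0 in the other 12 accessions.

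**Figure D4:**
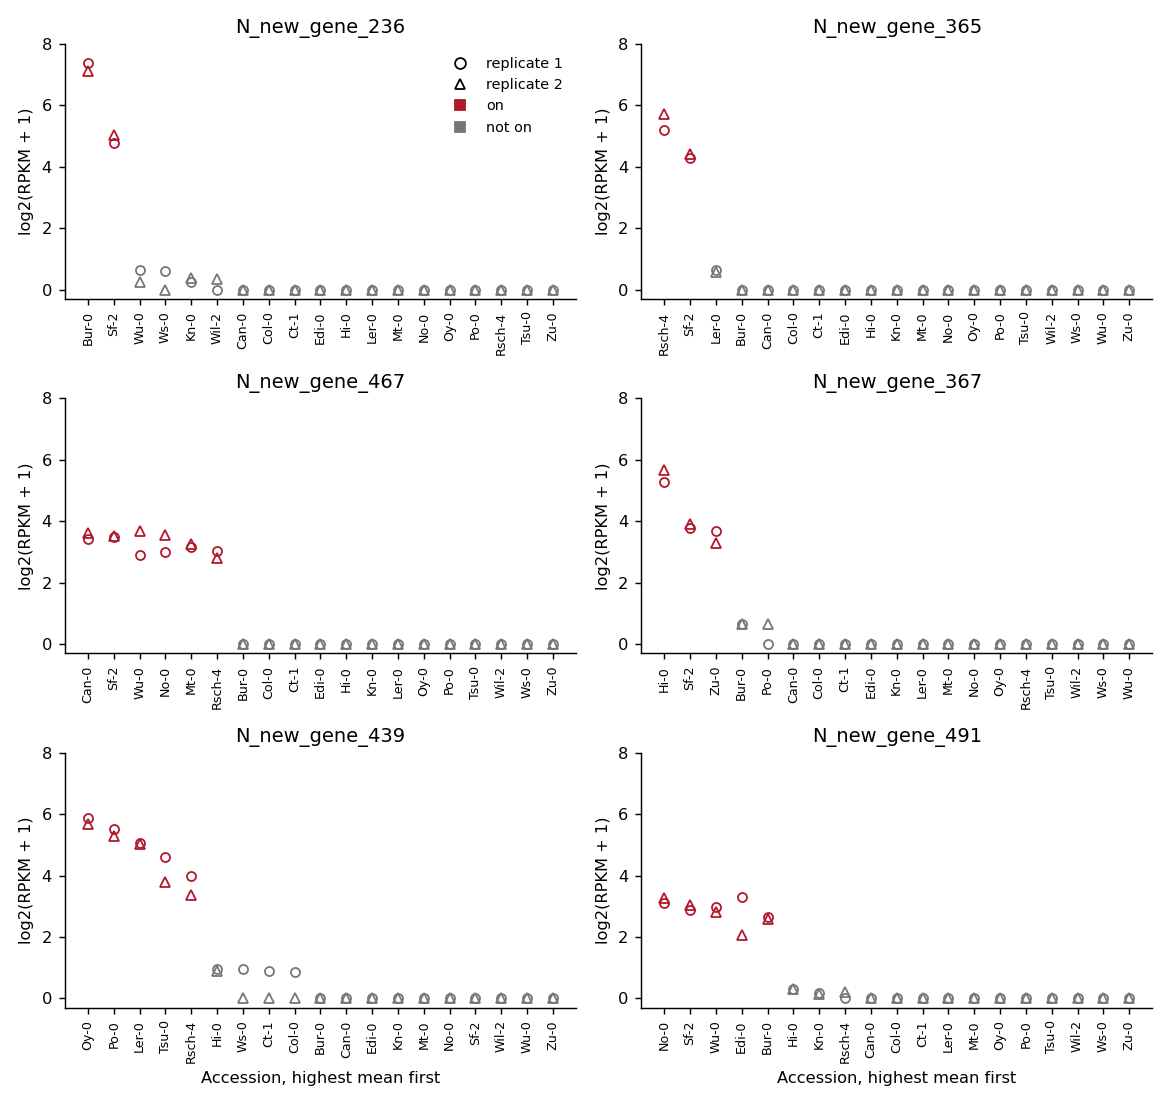
log2(RPKM + 1) (vertical axes) in each of the 2 libraries (circle and triangle) of the 19 accessions (horizontal axes, highest mean first) for 6 members with a wide gap. Red marks accessions with at least 1 RPKM in both libraries, and in each panel the lowest red point lies above every grey point.

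Others of the 10 members picked by this gap had thinner support. N_new_gene_45, of 141 bases, had 59.8 and 77.2 RPKM in Col-0 (40 and 46 reads) and 3.77 and 9.35 RPKM in Can-0 (2 and 4 reads), with 0 in all 34 other libraries. N_new_gene_369, of 129 bases, had 7.53 and 19.1 RPKM in Tsu-0 and 7.07 and 11.4 RPKM in Zu-0, which were 3 to 8 reads, with 0 elsewhere. At the lower of its levels a library at 0 would have held as few as 1.48 reads, so a level like that of Zu-0 could not be told from 0 in the shallowest library. For N_new_gene_45 and N_new_gene_217 the fewest reads reckoned this way were 1.15 and 1.76. N_new_gene_388, of 1 base, was also among the 10, with 1 or 2 reads in each library of the accessions that were on. Its highest mean in an accession not called on was 420.8 RPKM in Sf-2, above its lowest mean called on, 239.3 RPKM in Hi-0, and its gap exists on the log scale alone.

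Wide ranges with intermediate accessions were seen as well. N_new_gene_326, of 401 bases, had 50.6 and 44.3 RPKM in Ws-0, 31.6 and 33.1 in Po-0, 17.2 and 8.04 in Can-0 and 9.89 and 10.3 in Hi-0. Its libraries in Rsch-4 and Sf-2 held 1.10 to 4.27 RPKM, and none of the other 13 accessions had a library above 2.34 RPKM. N_new_gene_389, of 690 bases, had 44.7 and 48.2 RPKM in Can-0 and 9.16 and 8.55 RPKM in Ler-0, against 3.11 and 1.34 RPKM in Rsch-4 and at most 2.15 RPKM in any library of the other 16 accessions. Can-0 did not overlap any other accession, nor did Ler-0.

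There were 19 members on in exactly 1 accession with both libraries of every other accession below 1 RPKM, and 10 of the 19 accessions had such a private member. Can-0 and Sf-2 had 5 each, Rsch-4 had 2, and Bur-0, Hi-0, Kn-0, Ler-0, Wil-2, Ws-0 and Wu-0 had 1 each. Of the 19, 12 had at least 3 reads in both libraries of that accession, and 5 had at least 10. N_new_gene_156, of 740 bases, was the best covered of those named, with 19.4 and 24.1 RPKM in Ler-0 (59 and 81 reads) against at most 0.336 RPKM in Hi-0, Wu-0 and Zu-0 and 0 in the other 15 accessions. N_new_gene_143, of 1747 bases, had 6.18 and 4.03 RPKM in Kn-0 (43 and 33 reads), against at most 0.352 RPKM in 10 accessions and 0 in the other 8.

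Other private members rested on fewer reads. N_new_gene_268 had 8.00 and 9.36 RPKM in Ws-0 (22 and 8 reads) against at most 0.636 RPKM elsewhere, and N_new_gene_281 had 4.68 and 6.81 RPKM in Wu-0 (4 and 9 reads) with 0 in all other libraries. N_new_gene_229, of 45 bases, read 28.6 and 34.3 RPKM in Rsch-4 from 3 and 5 reads. N_new_gene_71, of 21 bases, read 12.7 and 46.1 RPKM in Can-0 from 1 and 3 reads, and N_new_gene_233, of 5 bases, read 56.1 and 88.0 RPKM in Sf-2 from 1 read in each library. At these levels a library at 0 would have held as few as 2.34 reads of N_new_gene_281 and 1.75 of N_new_gene_229. The fewest were 0.764 for N_new_gene_71 and 0.446 for N_new_gene_233. A like level of these 4 members could thus not be told from 0 in the shallowest library. The highest private level, 62.2 and 108 RPKM of N_new_gene_261 in Wil-2, belonged to a member whose length could not be recovered, so the reads behind it are unknown.

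Each accession had its own set of members on. The number on ran from 114 in Ws-0 and 131 in Col-0 to 155 in Hi-0 and 164 in Kn-0, and the number off from 92 in Can-0 to 131 in Ws-0. Ws-0 also had the shallowest library, and its replicates held 170 and 134 members at 1 RPKM or more with 3984363 and 1238089 mapped reads. With at least 3 reads in both libraries the number on was 126 in Kn-0 and 50 in Ws-0, with a median of 100 over accessions.

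**Figure D5:**
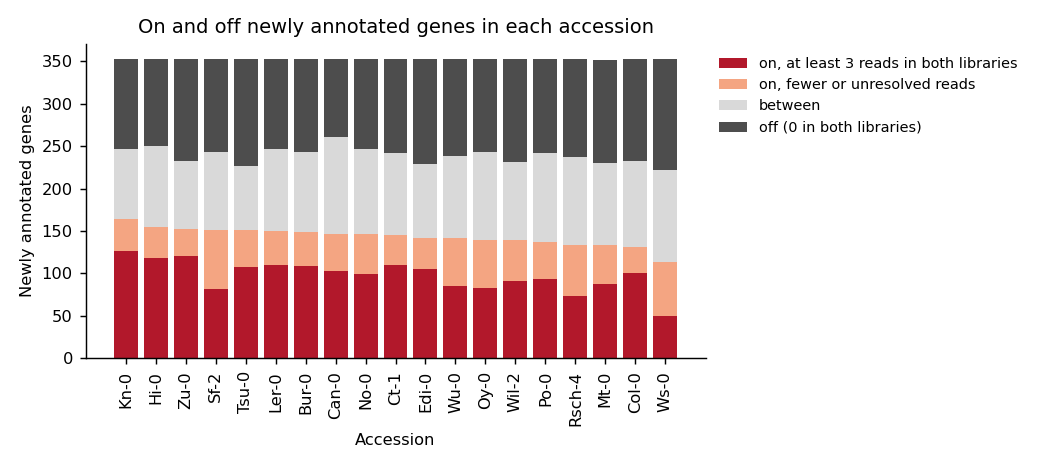
Number of the 353 newly annotated genes (vertical axis) that were on with at least 3 reads in both libraries, on with fewer or unresolved reads, between, or off in each accession (horizontal axis, most on first). Kn-0 stands at 164 on and Ws-0 at 114, and the darkest red part varies more between accessions than the total on.

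Col-0, the source of the reference genome, was on in 131 members and off in 120. Any member off in Col-0 passed the rule through other accessions alone, so being on elsewhere was largely set by the rule. Of the members off in Col-0, 106 were on in another accession and 30 were on elsewhere with at least 10 reads in both libraries. Counted the same way over accessions, the number of members off in an accession and on elsewhere with 10 reads ran from 17 in Sf-2 and 18 in Can-0 to 31 in Ws-0 and 32 in Tsu-0. The rule acts alike on members off in any accession, and no count of nuclear genes stands beside these numbers. In the other direction, 32 members were on in Col-0 with at least 10 reads, and 9 of them were off in at least 1 other accession. One member was on in Col-0 and in no other accession.

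Pairs of accessions shared a smaller part of their members than of their nuclear genes. Of the members on in either accession of a pair, a median of 48.0% over all pairs of accessions were on in both (lowest 37.7%, highest 58.7%), against 91.2% of nuclear genes (lowest 89.8%, highest 92.7%). Replicates of 1 accession also agreed less in members. Of values at 1 RPKM or more in replicate 1, 81.9% were so in replicate 2, against 96.4% in nuclear genes. These shares compare single libraries in 1 direction, so they are not on the scale of the shares between accessions. The part of replicate disagreement in the difference in sharing was not tested, and level and length were not matched. The most alike were Hi-0 and Kn-0, with 118 of 201 members shared, and Oy-0 and Po-0, with 101 of 175 (57.7%). The least alike was Can-0 with Wil-2, where 78 of 207 were shared, followed by Can-0 with Col-0, where 77 of 200 (38.5%) were. Oy-0 and Po-0 were also the most alike pair in nuclear genes, at 92.7%. With 3 reads required, the median was 43.2% and other pairs stood at the ends, Ler-0 and Ws-0 lowest at 30.1% and Tsu-0 and Zu-0 highest at 56.8%. Under that condition Oy-0 and Po-0 shared 55.8%, Hi-0 and Kn-0 51.6% and Can-0 and Wil-2 41.6%. Hi-0 and Kn-0, and Oy-0 and Po-0, shared a pair of sequencing lanes, as the labels give them. So did Can-0 and Col-0, which were among the least alike. Lane and accession cannot be told apart for these pairs.

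The moderated F test over the 19 accessions, run on all nuclear and newly annotated genes that passed the filter, called 205 of 353 members (58.1%) at an adjusted p under 0.05, where 55.3% of the 20669 genes tested were called. The rule let members in through the accessions in which they were high, so nothing is read from this share. When the filter was instead a mean log2(RPKM + 1) of at least 1, blind to accession, 87 of 186 members (46.8%) were called, against 57.8% of all genes tested. As a description of the called genes, the range of accession means was at least 2 on the log2(RPKM + 1) scale in 85.4% of called members, against 20.4% of called nuclear genes, and at least 4 in 19.5%, against 2.83%. The spread between replicates was larger as well, with a median residual SD of 0.52 in members and 0.23 in nuclear genes on the same scale. A gene with a larger spread needs a wider range to be called, and members entered through their high accessions. The shares by range are thus partly set by the call and the rule. Within single pairs of lanes, each with 3 or 4 accessions, 42 to 92 members (11.9% to 26.1%) were called, where 3.78% to 19.2% of all genes were. A term for the sequencing lane, added after the data were seen, left 187 members (53.0%) called, where 43.7% of all genes were. Each accession lay within 1 pair of lanes, so this term took out only differences between the lanes of a pair. Differences between pairs of lanes cannot be told apart from those between accessions.

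Set against the mean of the other 18 accessions, each accession had members higher and lower. Can-0 had the most higher, 46 members with 25 lower, where 7.19% of all genes tested were higher and 5.49% lower. Ct-1 had the fewest higher, 16 members with 22 lower, where 3.32% of all genes were higher and 5.48% lower. Ws-0 had the most lower, 38 members with 20 higher, where 9.75% of all genes were lower and 6.09% higher. Hi-0 had the fewest lower, 16 members with 20 higher, where 3.69% of all genes were lower and 3.85% higher. In both directions together, Can-0 had 71 members past the threshold, Ws-0 had 58, Ct-1 had 38 and Hi-0 had 36. Without Ws-0 replicate 2 the count of Ws-0 was 28. Without replicate 1 or replicate 2, Ct-1 had 23 or 19 and Hi-0 had 23 in either case.

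Members with consecutive numbers in their names resembled each other somewhat. Over the 19 accession means of log2(RPKM + 1), the median Pearson correlation was 0.16 in 239 pairs with consecutive numbers, against -0.01 in all 62128 pairs. It was over 0.8 in 9 of the 239 pairs (3.77%), against 96 of all pairs (0.155%). The 9 pairs included N_new_gene_69 with N_new_gene_70, N_new_gene_70 with N_new_gene_71, and N_new_gene_226 through N_new_gene_229 in 3 successive pairs. All values in a pair come from the same libraries, and several of these pairs rest on a single accession, such as Can-0 for N_new_gene_71 and Rsch-4 for N_new_gene_229. The files used here do not say how the numbers were given.

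At the threshold of the rule, N_new_gene_465 and N_new_gene_75 stood just inside, with 1.10 and 1.12 RPKM in their second highest library. The 29 listed genes that had values and failed the rule had 0 RPKM in their second highest library, among them N_new_gene_2 and N_new_gene_11. N_new_gene_390 was the single member without a value in all 38 libraries, lacking one in Mt-0 replicate 2. It rested on 5 reads over 4 libraries at a recovered length of 21 bases, and was on in no accession. Among the 352 members with all values, those with the lowest numbers were N_new_gene_3, on in 16 accessions, N_new_gene_4, on in 4, and N_new_gene_5, on in 11.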

How the data were processed

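The authors deposited 1 file per library with RPKM, defined per the file headers from reads, exon model length and mapped reads. In the biological libraries the RPKM column also holds the code -1, so it was handled as a score, as deposited, with -1 read as missing. The submitters' processing notes name TAIR9 and TAIR10. The aligner, the counting and its use of strand are not given in the sources used here, so reads shared with near-identical copies or with genes on the other strand cannot be told apart. The members and the rules for naming them were chosen with earlier results of these data known.

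Depth per library and the length divisor per member were recovered as the values at which RPKM become whole reads. In simulated data 99.7% of 299 divisors were recovered. Those data held only whole reads without a common factor, and no length as short as the shortest recovered here. The share therefore does not cover very short lengths, values that were not whole or reads with a common factor. Because only 88.3% of member values were whole, no count test was run. Reads without molecular identifiers are not independent molecules, and limits from 3 reads cover counting error only.

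Levels were tested as log2(RPKM + 1) for 20669 genes at 1 RPKM or more in at least 2 libraries, with a moderated F test over 19 accessions and contrasts of each with the mean of the others (limma 3.58.1 variance moderation with a trend, R 4.3.3), Benjamini-Hochberg adjusted at 0.05. The test was checked on simulated data and against limma itself. N_new_gene_390 was fitted without Mt-0 replicate 2. Fold changes on this scale understate those of low genes.

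Named members were the 8 highest, the 10 widest ranges, the 10 widest on-off gaps, up to 8 private ones, those absent from 1 accession, the 5 most even, the 4 with a value in the fewest accessions (ties by number) and those at the threshold. Alternatives covered pseudocount, filters, the code, scaling, blocks, lanes, thresholds and single libraries left out.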

Additional observations from a re-analysis of the deposited data

How the results depend on the processing

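Thresholds set the counts. Members on in every accession numbered 37 at 0.5 RPKM, 13 at 2 RPKM, 57 when the mean of both libraries was used, 14 with 3 reads and 2 with 10 reads, against 23. Members on in exactly 1 accession numbered 64 at 2 RPKM, against 42. On-off patterns numbered 106 when on meant 5 RPKM and 61 with 10 reads, against 223. The median number on per accession was 96 at 2 RPKM, against 145. The F test called 87 members with the filter on the mean (46.8%, where 57.8% of all genes were called) and 12 of 23 with 1 RPKM in every library (52.2%, against 59.7% of all genes), against 205. Within lane pairs 1 to 5, where fewer samples were tested, it called 92, 82, 45, 70 and 42 members (26.1%, 23.2%, 12.7%, 19.8% and 11.9%), where 13.7%, 19.2%, 3.99%, 6.61% and 3.78% of all genes were called. Leaving out 1 library gave 198 to 213. Without 1 library, the counts past the threshold against the other accessions ran from 19 to 43 in Ct-1, 28 to 63 in Ws-0 and 23 to 39 in Hi-0. Replicate numbers did not pair the samples: same-numbered deviations correlated at -0.14 to 0.13 over all pairs of accessions, and the replicate block left 205 calls. Pseudocounts, quantile normalization, median centring, the reading of the code and a variance without a trend kept the F test count within 1.5 times. Of 37 named members, 1 call changed under a pseudocount of 0.1 and 1 under quantile normalization, and in some fit without 1 library 3 were lost (N_new_gene_259, N_new_gene_423 and N_new_gene_75) and 4 gained (N_new_gene_388, N_new_gene_528, N_new_gene_15 and N_new_gene_465). Depth limits all calls near 1 RPKM: of 2720 calls of on, 411 had 1 read in the lower library and 1855 had at least 3. Of 217 members with an on-off pattern and a recovered length, 44 would have held at least 3 reads in every library at 0 at their lowest level called on.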

Other observations

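Of the newly annotated genes that failed the rule, 5 had a value above 0 in a single library. N_new_gene_514 read 60.7 RPKM in Ler-0 replicate 1, which would be 1 read on 4 bases. N_new_gene_453 read 8.85 RPKM in Hi-0 replicate 2, and N_new_gene_129 read 4.54 RPKM in Hi-0 replicate 1. N_new_gene_62 in Bur-0 and N_new_gene_37 in Col-0 read 3.47 and 3.00 RPKM in replicate 2. These were chosen after their values were seen, and all were at 0 in the other 37 libraries.

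The accession with the highest mean varied between members. Can-0 had the highest accession mean in 37 members, No-0 in 32, and Tsu-0 and Zu-0 in 26 each, while Ct-1 and Po-0 had it in 9 each.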
